A study of Arabidopsis thaliana with 12 samples.

Results

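Trichostatin A (TSA), an inhibitor of histone deacetylases, was given to Arabidopsis seedlings, and the 3 arrays of treated seedlings were compared with the 3 arrays of untreated seedlings. These 6 arrays were chosen by their titles from the 12 of the series, and the comparison was described across all 22746 probe sets of the Affymetrix ATH1 array that are not controls. Every group was made of whole seedlings 10 days old, grown in liquid medium (0.5× MS with 1% sucrose) at 21 °C under constant light, with the medium and its supplements renewed after 5 days. TSA was dissolved in DMSO and added at 2.5 mg/L after 24 hours to wild-type seedlings of ecotype Ws, while the untreated Ws seedlings received DMSO alone. The other groups were Ws given 20 mg/L of 5-AC, a cytosine analogue that lowers DNA methylation, and the DNA methylation mutant ddm1, a T-DNA line that received DMSO alone. The replicates were called biological in the series' design. The study's text, which does not describe the TSA seedlings, gives a later harvest than the labels for 5-AC and Ws. If it held for these arrays, age and treatment could not be told apart in either comparison with TSA. Histone acetylation itself was not analysed here.

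Histone acetyltransferases place acetyl groups on the tails of histones, and histone deacetylases take them off again, which in most settings goes with a more closed chromatin and lower transcription. TSA blocks the zinc-dependent deacetylases, the RPD3/HDA1 class, and leaves the sirtuins. In seedlings these deacetylases are known for shutting off embryo genes after germination, for setting root epidermal cell pattern and for restraining or allowing hormone and defence responses.

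Replicate arrays correlated at r of 0.977 to 0.988 within TSA and of 0.985 to 0.988 within Ws, and at 0.948 to 0.974 between the groups, across probe sets, which are not independent. Array medians lay between 4.92 and 5.03 on the log2 scale. The hybridization and poly-A controls differed between TSA and Ws by −0.13 to 0.37 (log2), with a median of 0.05. Many of them read at background in both groups, so the median says little of those with signal. The largest difference was that of a bioB control, with means of 8.03 in Ws and 8.40 in TSA and no overlap of arrays. Within the GAPDH controls the 3′ signal exceeded the 5′ signal by 1.17 to 1.42 (log2) in TSA and by 1.61 to 2.4 in Ws, and within the actin controls by 1.54 to 1.93 in TSA and by 1.77 to 2.52 in Ws. The GAPDH ranges of the groups did not overlap, and the part of this in the results was not tested. Leaf genes were high in both groups (LHCB4.1, a light-harvesting protein, between 12.01 and 12.81 in all 6 arrays), and the anther gene A9 lay between 2.42 and 2.58.

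After TSA, 1052 probe sets were higher and 1092 lower than in Ws (limma on all 12 arrays, adjusted p under 0.05), 9.43% of those tested. In each of these 2144 probe sets the TSA arrays did not overlap the Ws arrays, which largely follows from calling them on the same values. Of all probe sets 37.6% had arrays that did not overlap. The strongest changes were downward: 261 probe sets fell and 116 rose at least 4-fold. The median change was 0.93 (log2) among those higher and −1.31 among those lower, against 0.03 over all probe sets. Centring the arrays on 3 housekeeping genes gave 867 higher and 1375 lower, so that 38.7% of the calls were upward and not 49.1%. The number of calls also rested on single arrays. Without TSA replicate 2 there were 643 higher and 676 lower, without Ws replicate 1 there were 614 higher, and without Ws replicate 2 there were 682 higher, while 1026 probe sets passed whichever of the 6 arrays was left out. The methods' t-test, with unequal variances and the spread of each group from its own 3 arrays, left 1 probe set higher (AT2G40815, 1.60-fold) and 0 lower after adjustment, with 2157 higher and 1426 lower at an unadjusted p under 0.05, where limma had 2829 and 2553.

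Genes are named from the platform table. Other names come from the study's supplementary tables, which hold genes picked there for a change after 5-AC or in ddm1 against the same Ws arrays. The genes so named are not an even sample of genes, and their counts are not independent evidence. Some lists below pool both kinds of name. There, the shares and medians over all probe sets are no baseline for genes named by the supplementary tables.

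**Figure D1:**
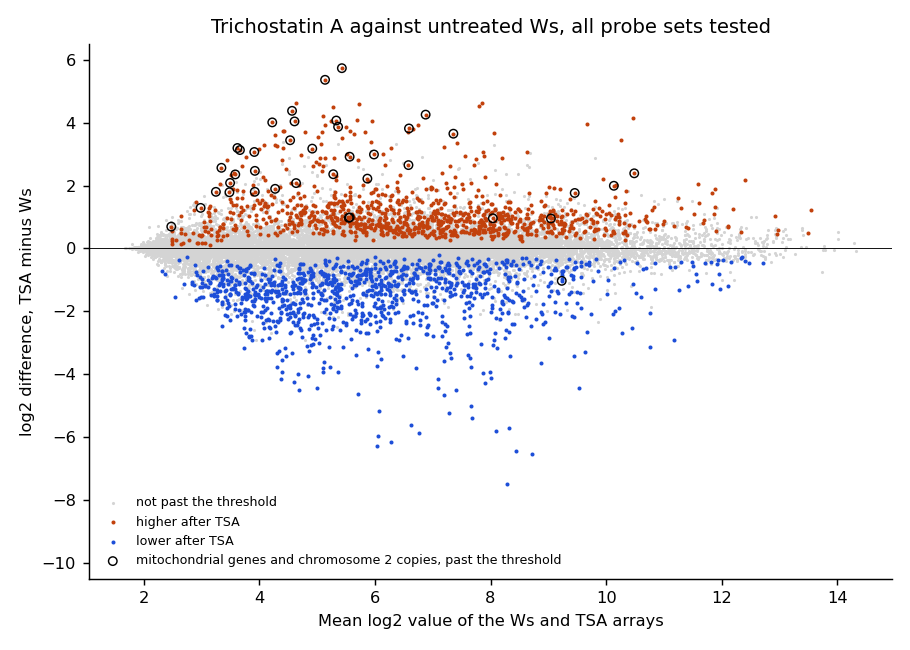
Mean log2 value of the 6 arrays (horizontal) against the log2 difference, TSA minus Ws (vertical), with 1 point per probe set tested. Coloured points are the 1052 higher and 1092 lower, grey points missed the threshold, and circles mark probe sets of mitochondrial genes and of their chromosome 2 copies that passed it.

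The 2 highest changes of all belonged to nad1, a gene of the mitochondrial genome. Plant mitochondria keep genes for subunits of the respiratory complexes, for cytochrome c maturation and for some ribosomal proteins, and chromosome 2 of Arabidopsis carries an inserted copy of much of that genome. Of the 24 probe sets that the platform table assigns to mitochondrial genes alone, 18 were higher, 1 was lower and 5 did not pass, with a median of 1.90 (log2). Over all probe sets 4.62% were higher. A further 11 probe sets match both a mitochondrial gene and a chromosome 2 locus, and 10 of them were higher (median 2.65). Among 23 probe sets for other loci of the same chromosome 2 interval, 10 were higher, up to 4.04 for AT2G07722, and none was lower. These arrays cannot tell a transcript of the organelle from one of its nuclear copy.

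The genes of complex I, the NADH dehydrogenase of the respiratory chain, held the largest differences. For the highest of the 7 probe sets of nad1 the Ws arrays read 2.61, 2.54 and 2.53 on the log2 scale and the TSA arrays 7.83, 9.13 and 7.92. All Ws values lay below the 25th percentile of their array, the level taken here as the floor, so that the rise of 5.73 ± 0.28 (log2, SE, adjusted p 2.21e-05) begins at background and its size depends on the background level. Another probe set of nad1 rose by 5.36 ± 0.15 (adjusted p 8.11e-07), from 2.43, 2.52 and 2.42 to 7.47, 8.10 and 7.89. For 1 probe set of nad5 the values were 2.45, 2.44 and 2.24 in Ws and 6.74, 7.35 and 6.17 in TSA, a rise of 4.38 ± 0.24 (adjusted p 3.5e-05). In the order given, the SDs of these probe sets were 0.73, 0.32 and 0.59 in TSA and 0.04, 0.06 and 0.12 in Ws. Their SEs and p-values pool the spread of all 4 groups, so they understate the spread among the TSA arrays.

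Respiratory genes above the floor in Ws rose too. The probe set for cox2, a subunit of cytochrome c oxidase, read 4.47, 5.24 and 4.33 in Ws and 8.32, 9.26 and 7.91 in TSA, a 14.1-fold difference (adjusted p 0.000494). The probe set shared by atp1, the ATP synthase alpha subunit, and AT2G07698 read 9.42, 9.26 and 9.19 in Ws and 11.65, 11.80 and 11.59 in TSA, a 5.24-fold difference (adjusted p 0.000378). The cytochrome c maturation gene ccb452 rose from 5.66, 5.78 and 5.16 to 9.19, 9.60 and 8.74 (adjusted p 0.000314). The groups did not overlap in any of these.

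Not every mitochondrial gene followed. The probe set for nad4 read 9.24, 9.89 and 9.24 in Ws and 9.56, 9.54 and 9.73 in TSA, and those for nad7, nad2 and 2 of the 7 probe sets of nad1 lay between 0.02 and 0.65 with no call. For ccb382, another maturation gene, the Ws arrays read 9.54, 10.44 and 9.26 and the TSA arrays 8.82, 8.71 and 8.62. This fall of 1.03 ± 0.27 (log2, adjusted p 0.0466) did not pass when any of the arrays except Ws replicate 3 was left out. Leaving out single arrays kept between 14 and 18 of the 24 probe sets higher.

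Against 5-AC, 18 of the 24 mitochondrial probe sets were higher in TSA and 1 lower, in the direct comparison of their arrays. After 5-AC the median difference of the 24 from Ws was 0.00 (log2) and in ddm1 it was −0.05. Those higher than Ws after 5-AC were cox2, by 1.78, and cox1, by 1.00 (0.95 after TSA), while nad9 and nad4 were among those lower. An RNA outside these genes that was also higher after TSA was the 25S ribosomal RNA, read by a control probe set of the array. It read 9.19, 8.41 and 10.33 in Ws, 11.31, 12.02 and 12.29 in TSA, and 13.04, 13.10 and 13.31 after 5-AC. The ribosomal RNA signal was thus above Ws with both drugs and highest after 5-AC, where the median of the mitochondrial probe sets stayed at that of Ws. The part of the ribosomal RNA signal in the mitochondrial differences was not tested.

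**Figure D2:**
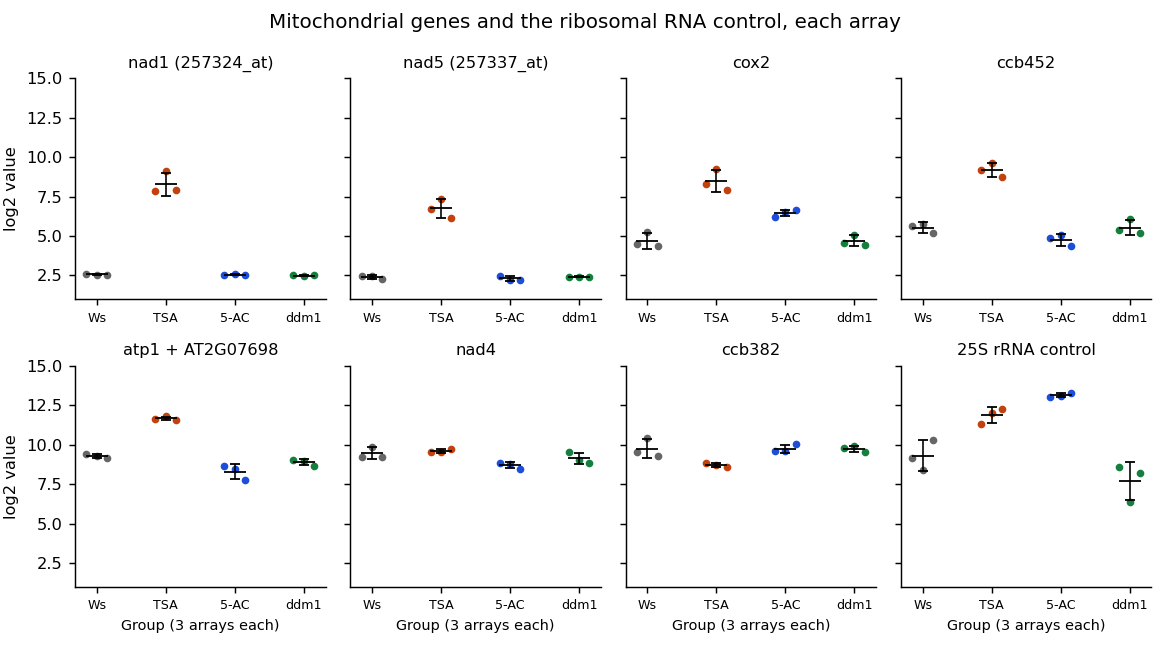
Log2 value of each array (points) with the group mean and SD (bars, n = 3) for 7 mitochondrial probe sets and the 25S ribosomal RNA control, in Ws, TSA, 5-AC and ddm1. TSA arrays stand apart from all other arrays for nad1, nad5, cox2, ccb452 and atp1, not for nad4, and the ribosomal RNA control is highest after 5-AC.

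Some chloroplast genes rose by small amounts after TSA. Of 77 probe sets for genes of the chloroplast genome 14 were higher and 0 lower, beside 4.62% higher over all probe sets, with a median of 0.18 (log2). By role, 6 of 20 for ribosomal proteins and 1 of 4 for the plastid RNA polymerase were higher, beside 2 of 26 for photosystem and cytochrome subunits, 1 of 11 for the NDH complex and 0 of 6 for the ATP synthase. For rps16, a ribosomal protein gene, the arrays read 5.85 to 6.40 in Ws and 7.46 to 7.61 in TSA, a 2.78-fold difference (adjusted p 0.00166). The polymerase gene rpoB rose from 4.69, 4.97 and 4.37 to 6.0, 6.52 and 6.03 (2.84-fold, adjusted p 0.0153), a call lost without TSA replicate 2. The lowest was ycf4, a photosystem I assembly gene, at −0.81 ± 0.23 (adjusted p 0.0656). The count of 14 fell to 6 without TSA replicate 2 and to 8 without Ws replicate 1. In the 5-AC arrays the median of the 77 was −2.05 against Ws, and TSA was above 5-AC in 75 of them.

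Transposable element genes, which DNA methylation and DDM1 keep silent, gave few calls. They were taken as the 923 probe sets for genes that RefSeq lists as pseudogenes, a class that holds the transposons and some other pseudogenes. Of these 5 were higher and 3 lower, 0.867% of them against 9.43% of all probe sets. In 552 of them all Ws arrays lay below the 25th percentile. Among the 108 that were at least 2-fold higher after 5-AC (median 3.69, log2), the median after TSA was 0.02. By limma 0 were higher and 3 lower, with 8 at an unadjusted p under 0.05. The methods' t-test passed none of the 108 after adjustment, but it passed only 1 of all probe sets. Both drugs were set against the same Ws arrays.

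The called elements were low in both groups. The highest called element, AT3G21020, read 3.22, 3.29 and 3.15 in Ws and 3.60, 3.86 and 4.39 in TSA (0.73 ± 0.17, adjusted p 0.0261), and lost its call without TSA replicate 2 or any Ws array. The lowest called, AT4G10580, read 3.71, 5.03 and 3.49 in Ws and 2.77, 2.69 and 2.70 in TSA, and was 4.57 above Ws after 5-AC and 5.45 above Ws in ddm1. Its call was lost without any TSA array or without Ws replicate 1, and its Ws replicate 2 was the highest of the 3. The other lower calls, AT3G31970 and AT2G14650, lay at −1.08 and −1.05, and all 3 come from probe sets that may bind related copies. None of the 8 calls passed whichever array was left out.

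**Figure D3:**
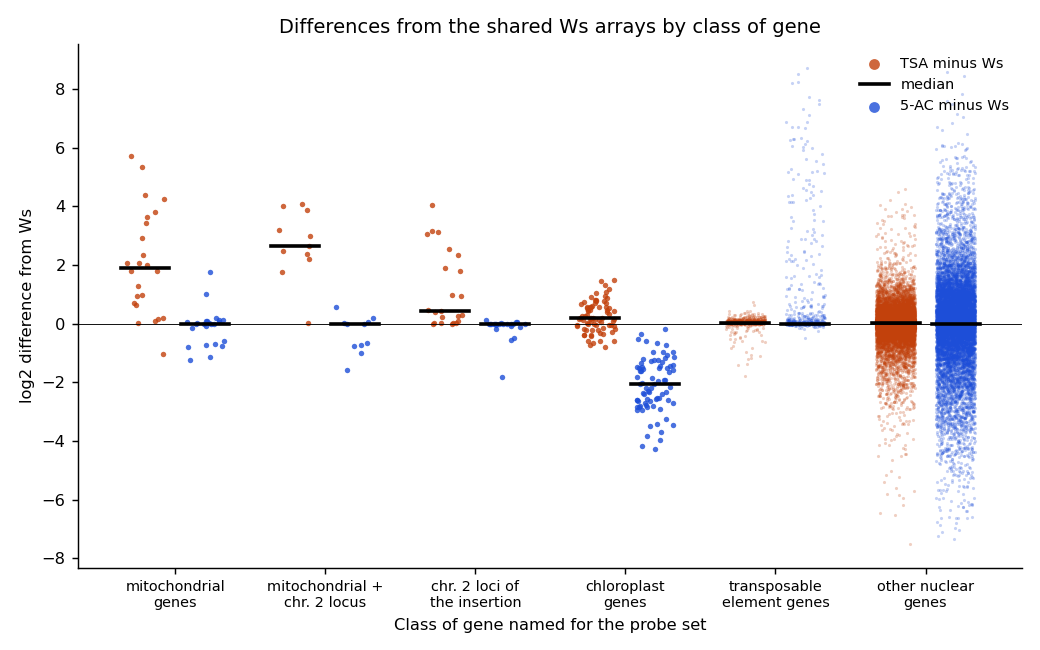
Log2 difference from Ws of each probe set after TSA (orange) and after 5-AC (blue) by class of gene, with the median of each class as a black line. The median of mitochondrial probe sets is 1.90 after TSA and 0.00 after 5-AC, that of chloroplast probe sets 0.18 and −2.05, and the upper tail of transposable element genes after 5-AC holds the 108 that were at least 2-fold higher there. Both columns use the same Ws arrays.

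The genes that fell furthest were nuclear. MLP328, of the major latex protein-like family of small ligand-binding proteins, read 12.02, 12.50 and 11.56 in Ws and 4.38, 3.22 and 5.99 in TSA. This is a 181-fold difference (log2 −7.50 ± 0.64, adjusted p 0.000321), and 3 other members of the family stood among the 20 lowest named probe sets. For AT4G14060 the arrays read 8.70, 9.67 and 8.72 in Ws and 3.31, 2.82 and 3.11 in TSA, a 62.1-fold difference (adjusted p 3.5e-05), and AT3G26460 and AT1G23130 fell 48.8-fold and 32.1-fold. Of 15 platform-named probe sets of the family, 6 were lower and 0 higher, where 4.80% of all probe sets were lower. Of 4 more that the study's supplementary tables name, all 4 were lower. The family was singled out after its values were seen. For MLP328 the difference was −6.85 without TSA replicate 2 and −8.23 without TSA replicate 3.

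Of 28 listed genes of jasmonate, the wound hormone, 8 could be named on the array. Of 3 platform-named probe sets 2 fell, the PDF1.2 pair, and 4 fell of 5 named by the supplementary tables, none of the 8 being higher. The median of the 8 was −2.07 (log2), against 0.03 over all probe sets, of which 4.80% were lower. After 5-AC the median of the 8 was −3.30, against the same Ws arrays. PDF1.2, an antifungal defensin used as a marker of jasmonate and ethylene signalling, read 13.18, 11.37 and 11.39 in Ws and 6.29, 5.47 and 4.60 in TSA (92.2-fold, adjusted p 0.000327). Its near-identical copy PDF1.2b fell 87.6-fold, and the arrays may not separate these copies. Without Ws replicate 1, the highest Ws array, the difference of PDF1.2 was −5.93 in place of −6.53 and that of PDF1.2b −5.75 in place of −6.45, and without TSA replicate 3 that of PDF1.2b was −5.85.

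Synthesis and signalling genes of the pathway lay lower as well. AOS, allene oxide synthase, the first committed enzyme of jasmonate synthesis, read 10.16, 9.64 and 9.16 in Ws and from 6.85 to 7.10 in TSA (6.37-fold, adjusted p 0.0018). The repressor genes JAZ9 and JAZ6 fell by 2.48 and 1.65 (log2, adjusted p 0.0224 and 0.027), and the transcription factor gene MYC2 fell by 1.51 (adjusted p 0.0212). The call of JAZ9 and that of MYC2 were lost without TSA replicate 1 or 2 or Ws replicate 1 or 2, and that of JAZ6 without TSA replicate 2 or 3 or Ws replicate 1 or 2. JAZ10 (−0.22) and the thionin THI2.1 (0.02) did not pass. The count of 6 fell to 3 without TSA replicate 2, Ws replicate 1 or Ws replicate 2.

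Several root genes fell. Of 6 probe sets for root markers the platform names only PYK10, a root beta-glucosidase, which did not pass (−0.25), and 4 were lower and 0 higher of 5 named by the supplementary tables, beside 4.80% lower over all probe sets. The 4 were CASP1, CASP2 and the thalianol genes THAS1 and THAH, and the nitrate transporter gene NRT2.1 did not pass (0.59). CASP2, a membrane protein of the Casparian strip in the root endodermis, read 6.95, 6.66 and 6.20 in Ws and 4.81, 4.23 and 4.51 in TSA, a 4.25-fold difference (adjusted p 0.000549). CASP1 fell 3.10-fold (adjusted p 0.0293), a call lost when any array except Ws replicate 3 was left out. The 6 root marker probe sets had a median of −1.86 (log2) after TSA and −3.34 after 5-AC, against the same Ws arrays. In the direct comparison 2 of the 6 were higher in TSA than after 5-AC and 2 were lower. In whole seedlings, fewer root cells and less RNA per root cell cannot be told apart.

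The endodermis was followed further with 12 probe sets for genes of suberin and the Casparian strip, a list drawn up after values were seen. Suberin is the waxy barrier of root cell walls. Of these probe sets 10 were lower and 0 higher, beside 4.80% lower over all probe sets. That share is no baseline for names taken from the supplementary tables. The 12 had a median of −1.73 (log2) after TSA and −3.05 after 5-AC, against the same Ws arrays. CASP1 and CASP2 are among them. The platform names 1 of the 12, and the other 11 carry names from the supplementary tables, 9 of them lower. GPAT5, an acyltransferase of suberin monomers, read 5.96, 5.96 and 5.07 in Ws and 3.90, 2.87 and 3.91 in TSA (−2.10 ± 0.36, log2, adjusted p 0.00754). ABCG20 and ABCG6, transporters needed for suberin, fell 4.91-fold and 3.26-fold, and FAR4, which makes its fatty alcohols, fell 4.03-fold. The receptor kinase gene GSO1 fell 3.63-fold (adjusted p 0.0294), not passing without TSA replicate 2 or Ws replicate 1 or 2. Without each of these same 3 arrays the count of 10 was 6.

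Of the root hair genes, COBL9 and 3 patterning genes fell. COBL9, needed for hair growth, read 7.35, 6.28 and 6.77 in Ws and 4.77, 4.36 and 5.08 in TSA (4.17-fold, adjusted p 0.00181), and the other 7 probe sets for hair growth, from −0.50 to −1.73, did not pass. The root hair expansins EXPA7 and EXPA18, the ones the platform names, lay at −0.76 and −0.58. The 8 probe sets for hair growth had a median of −1.16 (log2) after TSA and −4.27 after 5-AC, against the same Ws arrays. Among 5 probe sets for the pattern of hair and non-hair cells, 4 of them named by the supplementary tables, WER, SCM and CPC fell by 1.28, 0.97 and 0.71 (log2, adjusted p 0.0196, 0.0079 and 0.0168). The call of WER was lost without TSA replicate 1, Ws replicate 1 or Ws replicate 3, and that of CPC without TSA replicate 1 or Ws replicate 2. The median of the 5 patterning probe sets was −0.71 (log2) after TSA and −2.02 after 5-AC.

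Some shoot and stomata markers rose. Of 7 probe sets 3 were higher and 0 lower, 1 of the 3 being among the 4 that the platform names, beside 4.62% higher over all probe sets. TMM, a receptor of stomatal spacing, read 4.03, 4.21 and 4.46 in Ws and 5.83, 5.47 and 5.53 in TSA (2.59-fold, adjusted p 0.00206). FDH, an epidermal enzyme of fatty acid elongation, rose by 0.98 (log2, adjusted p 0.000727) and SPCH, the factor that starts the stomatal lineage, by 0.77 (adjusted p 0.00192). MUTE (0.02), FAMA (−0.39), the epidermal gene PDF1 (0.99, adjusted p 0.155) and the meristem gene CLV3 (0.01) did not pass.

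Neighbouring genes of the thalianol cluster on chromosome 5 fell together. Thalianol is a triterpene made in roots by enzymes whose genes lie side by side. The genes of the run were picked after their values were seen, and the platform names 1 of the 4. THAS1, the synthase, read 8.55, 8.87 and 8.55 in Ws and 3.57, 2.49 and 4.40 in TSA (35.9-fold, adjusted p 0.000432). Its neighbours THAH, CYP705A5 and AT5G47980 fell 21.6-fold, 37.4-fold and 6.89-fold (adjusted p 0.00312, 0.00227 and 0.000276). CYP716A2 and PEN3, a second pair of triterpene genes next to each other, fell 15.2-fold and 3.84-fold. The call of PEN3 was lost without TSA replicate 1 or 2 or Ws replicate 1 or 2. Without TSA replicate 2 the differences of CYP705A5 and THAH were −4.38 and −3.66 in place of −5.22 and −4.43, and without TSA replicate 3 they were −5.85 and −5.11.

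In the order of genes in the TAIR10.1 annotation, the thalianol run of 4 was the longest of 29 runs of neighbouring genes called in 1 direction at least 2-fold. The runs held 62 of the 820 genes so called, 23 runs lower and 6 higher. Many neighbours are tandem copies whose probes may share signal, such as MLP328 with MLP329 (−2.85) and GSTU25 with GSTU26 (−1.42 and −1.61). No test was made of whether 29 runs exceed what the gene order would give.

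Among the 20 lowest named probe sets were also CYP81F4 and BGLU28. CYP81F4, a cytochrome P450 of indole glucosinolate synthesis, read 10.63, 11.79 and 11.13 in Ws and 4.95, 4.55 and 6.92 in TSA (52.3-fold, adjusted p 0.000733), and −6.43 (log2) without TSA replicate 3 in place of −5.71. Of the 5 probe sets of the glucosinolate list, which does not hold CYP81F4, 1 was higher and 1 lower, with a median of 0.28. The platform names only the higher one. MYB34, an activator of the same pathway, fell by 2.07 (log2, adjusted p 0.0326), a call lost without TSA replicate 1 or any Ws array and at −1.45 without TSA replicate 2, while BCAT4, of aliphatic glucosinolate synthesis, rose by 1.41 (adjusted p 0.0165), a call lost without Ws replicate 2. BGLU28, a beta-glucosidase, read 8.79, 9.44 and 9.23 in Ws and 4.09, 4.41 and 6.56 in TSA (−4.13 ± 0.53, log2, adjusted p 0.002), and the difference was −4.90 without TSA replicate 3. COR47, a cold and drought dehydrin, fell 3.69-fold with little spread, from 11.21, 11.08 and 11.22 to 9.22, 8.95 and 9.68 (adjusted p 0.000352). The rest of the 20 lowest, among them AT1G64590, AT5G37990, AT5G38020, DR4 and the terpene synthase gene AT3G32030, lay between −5.79 and −4.13 (log2).

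Families with a shared symbol were also counted. Of 11 platform-named tau class glutathione transferases, detoxifying enzymes, 4 were lower and 1 higher. The higher member was GSTU20, at 6.02, 6.49 and 7.79 in Ws and 9.24, 9.70 and 9.94 in TSA (7.27-fold, adjusted p 0.00294). Of 47 UDP-glycosyltransferases 6 were lower and 0 higher, the lowest being UGT71C1 at −2.47. Of 22 trichome birefringence-like genes, which acetylate cell wall polymers, 5 were lower and 2 higher. These families were chosen after values were seen, and their shares stand against 4.80% lower and 4.62% higher over all probe sets.

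**Figure D4:**
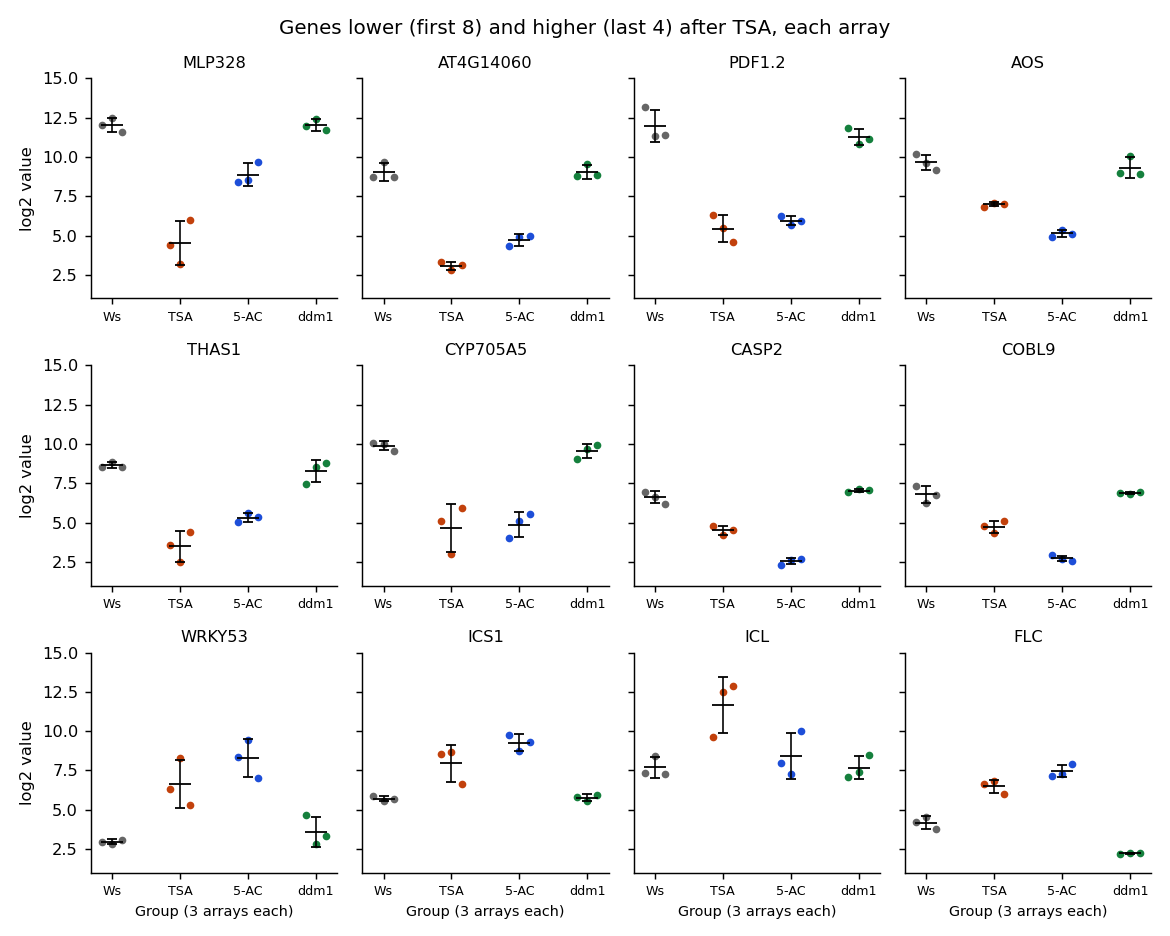
Log2 value of each array (points) with the group mean and SD (bars, n = 3) for 8 genes lower and 4 genes higher after TSA, in Ws, TSA, 5-AC and ddm1. TSA and Ws do not overlap for any of the 12, and ICL has the widest spread among its TSA arrays.

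Among the 20 highest named probe sets were AT2G43620, CHI and WRKY53, known for roles in defence or senescence, with a wide spread among their TSA arrays. AT2G43620, a chitinase gene, was the highest named nuclear gene and read 2.88, 2.58 and 4.80 in Ws and 7.62, 9.21 and 7.22 in TSA (24.2-fold, adjusted p 0.00294), its difference being 4.0 (log2) without TSA replicate 2 and 5.29 without Ws replicate 3 in place of 4.60. CHI, another chitinase gene, read from 2.4 to 2.92 in Ws and 7.27, 7.79 and 3.82 in TSA (13.2-fold, adjusted p 0.0383). WRKY53, a transcription factor of senescence and defence, read 2.98, 2.79 and 3.09 in Ws and 6.35, 8.29 and 5.29 in TSA (12.9-fold, adjusted p 0.0253). The calls of CHI and WRKY53 were lost without any array except TSA replicate 3, without which their differences were 4.96 and 4.36 (log2) in place of 3.72 and 3.69. Without TSA replicate 2 they were 2.97 and 2.87.

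Of the salicylic acid genes, ICS1 and WRKY53 rose. ICS1, isochorismate synthase, which makes the precursor of salicylic acid, read 5.86, 5.55 and 5.70 in Ws and 8.53, 8.70 and 6.62 in TSA (4.74-fold, adjusted p 0.0234), a call lost without any array except TSA replicate 3, without which the difference was 2.91 in place of 2.24 (log2). Of the 12 probe sets of the salicylic acid list, 2 were higher and 0 lower, beside 4.62% higher over all probe sets, and WRKY53 is the only one the platform names. PBS3, which acts after ICS1, read 7.35, 8.20 and 2.79 in TSA against 2.61, 2.74 and 2.82 in Ws, and did not pass (adjusted p 0.106). The pathogenesis-related gene PR2 read 7.22, 7.05 and 3.07 in TSA and 2.75, 2.56 and 5.84 in Ws (adjusted p 0.348), and BG3 stayed low at 3.99, 3.24 and 3.02 against 2.79, 2.75 and 2.95 in Ws. TSA replicate 3 was the lowest TSA array in all 5 of these genes. Without it 5 of the 12 passed, and without any other array of the 6 none did.

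Genes of other roles rose too. AT1G29090, annotated as a cysteine peptidase, read 2.60, 2.90 and 3.47 in Ws and 6.87, 7.01 and 7.73 in TSA (18.6-fold, adjusted p 5.41e-05). AT1G72060 rose 22.6-fold and the ethylene synthesis gene ACS7 rose 16.6-fold (adjusted p 0.00404 and 0.00766), the latter by 4.88 (log2) without TSA replicate 3 in place of 4.05. CYP81D8, a P450 used as a marker of response to foreign chemicals, rose 16.8-fold (adjusted p 0.00916). ICL, isocitrate lyase of the glyoxylate cycle that turns seed oil into sugar, read 7.35, 8.44 and 7.29 in Ws and 9.60, 12.51 and 12.87 in TSA (15.6-fold, adjusted p 0.0334). The spread of ICL was wide, and its call was lost without any array except TSA replicate 1, without which the difference was 5.00 in place of 3.97 (log2), while it was 3.36 without TSA replicate 3. Of 3 platform-named probe sets for oil use, a list made after values were seen, ICL alone passed, and CSY2 and CSY3, peroxisomal citrate synthases named by the supplementary tables, rose by 0.95 and 0.78 (log2).

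Among genes of chromatin itself, 0 of 2 platform-named probe sets for deacetylases were called. Of 3 for the silencing machinery 2 were higher, but all 3 read the gene DME, so they give no share for that list. Over all probe sets 9.43% were called. The supplementary tables name 2 more for deacetylases, with 1 higher, and 5 for the silencing machinery, with 1 higher and 1 lower. All 4 for Polycomb repressors are named by those tables, and 1 was lower. HDT3, a plant-specific deacetylase, rose by 0.54 ± 0.13 (log2, adjusted p 0.0359), from between 7.89 and 8.22 to 8.78, 8.53 and 8.43, and its call was lost without TSA replicate 1 or 2 or Ws replicate 2 or 3. The deacetylase genes HDA7, HDA14 and HDA15 lay at 0.02, 0.26 and −0.11 with no call. Of 15 platform-named probe sets for histones 1 was lower and 0 higher, and of 5 named by the supplementary tables none passed. The 1 was that of the drought-induced linker histone H1.3 (−2.27, adjusted p 0.0445), a call lost when any array except Ws replicate 3 was left out. CLF, the Polycomb methyltransferase, fell by 1.12 (adjusted p 0.00284), from 5.12, 4.95 and 4.81 to 3.75, 3.95 and 3.82. Against the same Ws arrays CLF was also lower after 5-AC (−1.12) and in ddm1 (−0.88, limma adjusted p 0.0261). A part of the Ws arrays in these differences was not tested.

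DNA demethylase genes moved in opposite directions. DME, a demethylase of the central cell, rose by 1.27 (log2, adjusted p 0.00254) in 1 of its 3 probe sets, from 4.18, 4.21 and 4.06 to 5.27, 5.23 and 5.77, and by 0.57 (adjusted p 0.0241) in another. The latter call was lost without TSA replicate 1 or 3 or Ws replicate 1 or 2, and the remaining probe set lay at 0.35 with no call. ROS1, which removes methylation in vegetative tissue and whose transcript is known to follow methylation, fell by 1.22 (adjusted p 0.00126), from 3.52, 3.66 and 3.66 to 2.2, 2.27 and 2.71. It was also lower after 5-AC (−1.50) and in ddm1 (−1.31), against the same Ws arrays. TSA replicates 1 and 2 lay under the 25th percentile of their arrays, which was 2.64 to 2.70 over the TSA and Ws arrays. The size of the fall of ROS1 after TSA is thus limited by the floor. Its 5-AC and ddm1 arrays read from 2.07 to 2.55. SUVH4, a histone H3 methyltransferase gene, rose by 0.80 (adjusted p 0.0389), a call lost without any single array, and MET1 (0.12), DDM1 (0.43) and NRPD1 (0.56) did not pass.

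Lists of developmental genes gave single calls. FLC, the MADS-box repressor of flowering, read 4.22, 4.55 and 3.79 in Ws and 6.63, 6.83 and 5.99 in TSA (4.91-fold, adjusted p 0.00133). It was 3.26 (log2) above Ws after 5-AC and 1.95 below Ws in ddm1. FLC is named by the supplementary tables and was the only call among 6 probe sets of the flowering list, beside 4.62% higher over all probe sets. Of 23 listed genes for embryo and seed maturation only 2 could be named, and M17, the one the platform names, lay at 0.03. AGL15, a MADS-box factor of the embryo, rose by 1.11 (adjusted p 0.00895), from 2.48, 2.75 and 2.48 to 3.78, 4.07 and 3.19. The name of AGL15 comes from the supplementary tables, and it was 3.04 above Ws after 5-AC. The methylation-silenced gene FWA stayed at −0.02 in TSA and was 5.22 above Ws after 5-AC.

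Of 9 probe sets for DNA damage genes, all named by the supplementary tables, 2 were higher and 0 lower, with a median of 0.69 (log2), where 4.62% of all probe sets were higher. GMI1 and DMC1 rose by 1.57 and 1.36 (log2, adjusted p 0.0236 and 0.0116), and BRCA1, PARP2, SMR4 and SMR5 lay between 0.20 and 0.88 with no call. The call of GMI1 was lost without TSA replicate 1 or 2 or Ws replicate 1. The mitotic cyclin CYCB1;1, also held high by DNA damage, rose by 1.19 (adjusted p 0.0093) and was 4.97 ± 0.21 lower than after 5-AC (adjusted p 3.92e-07). Of the senescence genes, SAG12, SAG13 and SAG29 lay at 0.07, 0.22 and 0.03 after TSA. DIN2, a sugar-repressed beta-glucosidase, fell to the floor, from 5.94, 5.58 and 5.02 to 2.62, 2.65 and 2.53 (adjusted p 0.00109), so that the size of its fall is limited by the floor. It was also 2.37 below Ws in ddm1 (adjusted p 0.00569) and was 5.12 above Ws after 5-AC.

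Of 6 probe sets for chlorophyll synthesis 2 were higher and 0 lower, both named by the supplementary tables, with a median of 0.91 (log2) and all 6 at an unadjusted p under 0.05. HEMA1, the first enzyme committed to tetrapyrroles, and CHLD, a magnesium chelatase subunit, rose by 1.18 and 0.91 (log2, adjusted p 0.00563 and 0.0156), the call of CHLD being lost without TSA replicate 2 or Ws replicate 1. Of 7 platform-named probe sets for tubulins 1 was higher and 0 lower, beside 4.62% higher over all probe sets. Of 2 named by the supplementary tables none passed. The pollen-preferred tubulin TUA1 rose by 0.85 (adjusted p 0.00704). ABI2, a phosphatase of abscisic acid signalling, fell by 0.80 (adjusted p 0.0161), and GSTU25 fell by 1.42 (adjusted p 0.0143), a call lost without TSA replicate 1 or 2.

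Of 33 lists drawn up for this tissue and treatment, 13 had no called probe set. These were nuclear photosynthesis, auxin, cytokinin and gibberellin, ethylene, DNA replication, the circadian clock, heat shock, flavonoids, phosphate and iron supply, histone acetyltransferases, deacetylase co-repressors, housekeeping genes and anther markers. Most genes of these lists could not be named on the array, with 12 of 48 named for nuclear photosynthesis, 3 of 14 for heat shock, 2 of 15 for the circadian clock and 1 of 12 for anther markers, so a list with no call says little of its pathway. Their 66 probe sets, which hold no call because the lists were grouped that way, had a median of 0.07 (log2). By limma 15 of the 66 had an unadjusted p under 0.05, where 2829 higher and 2553 lower of all 22746 had. The methods' t-test passed none of the 66 after adjustment, but it passed only 1 of all probe sets. Among the 12 for nuclear photosynthesis the values ran from −0.14 to 0.83, for LHCB4.2. At an unadjusted p under 0.05 there was 1 of the 12 by limma and 3 by the methods' t-test. For LHCB4.1 and LHCB4.2 all TSA arrays lay above all Ws arrays, while 37.6% of all probe sets did not overlap. Their limma SEs of 0.46 and 0.92 take in the 5-AC arrays, which for LHCB4.1 read 9.18, 8.56 and 10.86. A missing call here thus does not show that these genes were unchanged. Over the lists together, 6 of 89 platform-named probe sets were higher and 5 lower, with a median of 0.04, beside 9.43% called over all probe sets.

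TSA and 5-AC arrays were also compared directly, which asks where the effects of the drugs differ. Of all probe sets 39.6% differed, 4077 higher and 4941 lower in TSA. Centring on the 3 housekeeping genes gave 9903 higher and 4053 lower, so this balance depends on the scaling. Some genes were far apart between the drugs, and for others no difference passed. MLP328 was 4.35 ± 0.64 (log2) lower in TSA than after 5-AC (adjusted p 0.000549), and AT4G16260, a glucanase-like gene, was 4.14 ± 0.71 lower (adjusted p 0.00131), falling from 11.55, 8.95 and 9.73 in Ws to 5.75, 5.60 and 6.49 in TSA and standing at 0.01 from Ws after 5-AC. Without Ws replicate 1 its fall after TSA was −3.39 in place of −4.13.

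Higher in TSA than after 5-AC were ICL, by 3.24 ± 0.96 (adjusted p 0.0235), GSTU20, by 4.75 ± 0.40 (adjusted p 1.82e-05), and TMM, by 2.94 ± 0.18 (adjusted p 2.78e-06). Lower in TSA were the defence genes BG3, by 7.98 ± 0.21 (adjusted p 1.95e-08), and PR2, by 6.37 ± 1.21 (adjusted p 0.00239). No difference passed for PDF1.2 (−0.50 ± 0.56, adjusted p 0.504), CYP705A5 (−0.21 ± 0.69, adjusted p 0.82), COR47 (0.12 ± 0.16, adjusted p 0.583) or ACS7 (−0.14 ± 0.69, adjusted p 0.882). The standard errors of PDF1.2, CYP705A5 and ACS7 leave room for larger differences than those observed. A missing call thus does not show that these genes were alike after both drugs.

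**Figure D5:**
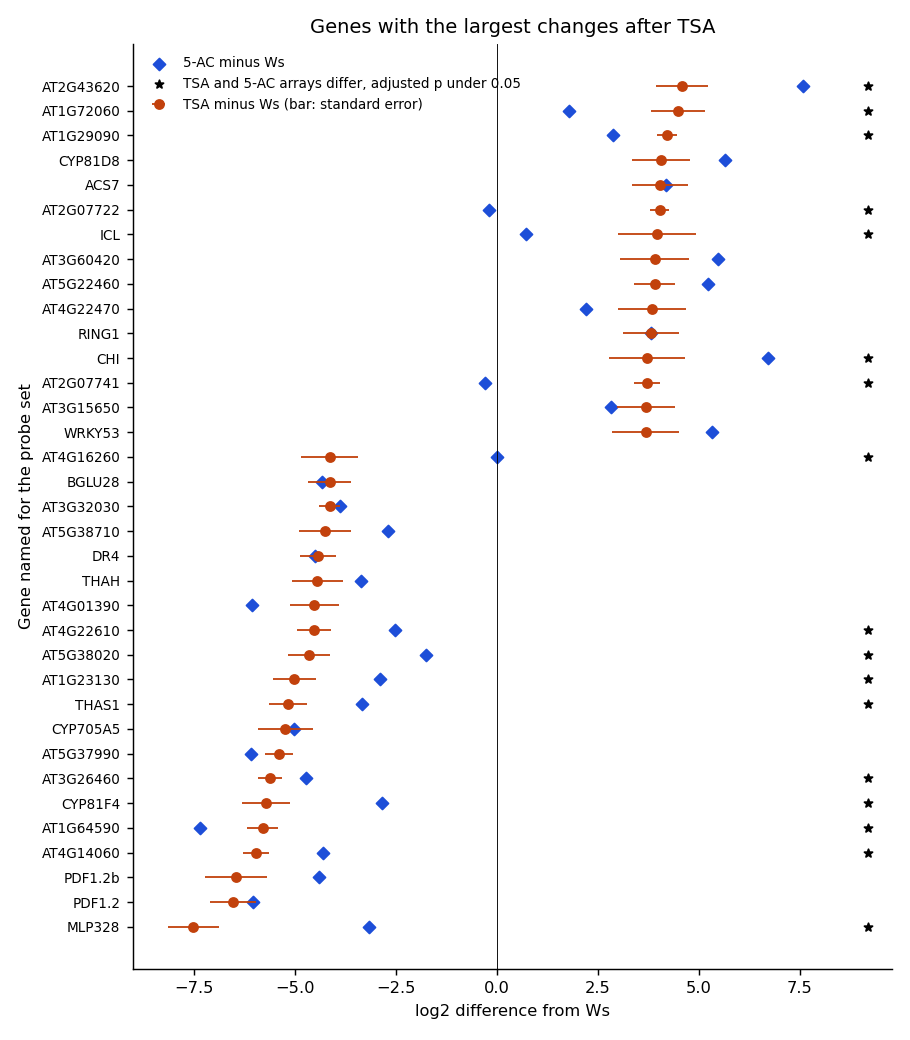
Log2 difference from Ws after TSA (orange, bars are standard errors) and after 5-AC (blue diamonds) for the highest and lowest named genes, against the same Ws arrays. Probe sets assigned to mitochondrial genes alone are left out. AT2G07722, of the chromosome 2 interval, and AT2G07741, numbered just beyond that interval, are kept. Stars mark genes whose TSA and 5-AC arrays differed at an adjusted p under 0.05, among them MLP328, AT4G16260, ICL and AT2G43620.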

How the data were processed

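RNA was hybridized to 12 Affymetrix ATH1 arrays, 3 for each of 4 groups. The log2 values were deposited by the authors, who made them with gcRMA (background adjusted for probe sequence, quantile normalization, 1 value per probe set). The present calls of the methods were not used here. The 64 control probe sets were left out and all other 22746 tested.

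Differences of TSA from Ws and from 5-AC were estimated with limma (version 3.58.1, under R 4.3.3). Its moderated two-sided test used group means as coefficients and the spread of all 12 arrays, and p-values were adjusted by Benjamini-Hochberg across every tested probe set, with calls at 0.05. The scripts were tested on simulated data. The methods' t-test (unequal variances), other filters, priors and scalings, a replicate block and leaving out each array were alternatives. Near the floor means under the 25th percentile of the array, in all 3 arrays. The number of arrays limits the precision, and p-values measure the spread between these samples.

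Gene names came from the platform annotation (13513 probe sets with 1 gene, 503 with several) and, by name only, from the study's supplementary tables (1777), and 6953 probe sets stayed unnamed, 560 of them called. RefSeq of assembly TAIR10.1 gave chromosomes, gene order and gene classes, and 15192 of 15224 single-gene probe sets matched it. Named genes were the 20 highest and 20 lowest with 1 gene and no overlap of arrays, the leading members of each list, and the extremes of the mitochondrial, chloroplast and transposable element classes, with other genes chosen after their values were seen. Members and lists were chosen with earlier results of these data known.

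Replicate numbers appear in the labels with no statement of a shared batch. Deviations of same-numbered TSA and Ws arrays from their group means correlated at 0.234, −0.061 and 0.149, so TSA and Ws were not treated as paired. Those of TSA and 5-AC correlated at 0.12, 0.13 and 0.179, above 0.1 in each pair, and the blocked fit of that comparison changed the counts by under 1.5 times. Sequences were not used here.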

Additional observations from a re-analysis of the deposited data

Results flagged for a closer look

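A control probe set for 25S ribosomal RNA, which is outside the genes tested, was 2.56 (log2) higher in TSA than in Ws. It was the only control with a difference of at least 1 (log2) and no overlap of arrays. All 3 TSA arrays lay above all 3 Ws arrays, the ddm1 arrays read 8.60, 6.35 and 8.24, and the 5-AC arrays lay higher than TSA. The cause was not tested.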

How the results depend on the processing

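All 81 called named genes kept their direction under every alternative in which they were tested. Of them 50 kept their call with limma on the 6 arrays of the comparison alone, 80 when centred on 3 housekeeping genes, 81 when centred on array medians, 80 with a trend and robust prior, and none under the methods' t-test. The counts against Ws moved by over 1.5 times under the methods' t-test (1 higher, 0 lower) and with the 6 arrays alone (593 higher, 553 lower). Leaving out 1 array gave 614 to 1151 higher and 676 to 1092 lower. Against 5-AC the methods' t-test gave 1178 higher and 1267 lower, centring on housekeeping genes 9903 higher, and leaving out 1 array 3585 to 3991 higher and 4396 to 4911 lower. With a replicate block, TSA against Ws gave 1209 higher and 1263 lower, and 5 of the 81 named calls were lost, same-numbered TSA and Ws arrays sharing only a number. BGLU28 was 0.19 higher in TSA than after 5-AC, and leaving out 1 array gave −0.58 (without TSA replicate 3) to 0.65. AGL46 in the same comparison was −0.01 and became 0.18 when centred on housekeeping genes. Filters on low values and single-sequence probe sets moved these counts by under 1.5 times. The cause of each shift was not tested. Values near the floor limit fold changes of genes silent in either group.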
